A study of Mus musculus with 24 samples.

Results

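Solute carriers are the membrane proteins that move nutrients, ions, metals and metabolites across the cell surface and across the membranes of mitochondria and other organelles. The genes described here were all genes with a symbol of the form Slc, family number, a, member number (Slc39a8 not included) that were named by a probe with a single gene in the platform annotation. There were 144 such genes, on 183 probes, among 8973 named genes and 17440 features (named genes and unnamed probes) tested on the arrays, and 28 of them had more than 1 probe. The rule goes by symbol, and 2 of the 144 encode proteins that bind carriers and are no transporters themselves: Slc9a3r1, a scaffold for sodium/proton exchangers, and Slc4a1ap, an adaptor named for the red cell anion exchanger.

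RNA came from mouse embryoid bodies, the aggregates in which embryonic stem cells differentiate, sorted into cells with (Flk1+) and without (Flk1-) the VEGF receptor Flk1 on their surface at 84 h, 95 h and 8 d of differentiation. Each of the 6 groups (Flk1+ at 84 h, 95 h and 8 d, Flk1- at 84 h, 95 h and 8 d) held 4 samples, each on an Agilent mouse development array against a common reference RNA from homogenised whole pups. The labels name no stem cell line, genotype, treatment, sorting reagent or separate cultures, so the spread behind each p-value is that of these samples and could be technical. The study's title asks about Wnt signalling in commitment to endothelium; the comparisons here ask which transporter genes differed between the sorts and which changed with time.

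Carriers are grouped in families by sequence and by what they move: the Slc1, Slc6, Slc7 and Slc38 families carry amino acids, Slc2 sugars, Slc12 chloride with potassium or sodium, Slc30 and Slc39 zinc and other metals, and Slc25 the metabolites that enter and leave mitochondria. Early embryonic cells are known for high rates of glycolysis and of amino acid uptake, and iron, zinc and calcium handling change as blood, vessel and muscle lineages form. Changes in carrier RNA therefore describe which exchange routes a cell population is equipped for, though RNA is not transport activity.

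All values below are log2 ratios of sample over whole-pup reference after each array's median was set to 0, and a positive difference means higher in Flk1+ or at the later time. The sources used here do not state the log base or the direction of the ratio. The ratio of one gene to the reference cannot be set against that of another as a level. A gene is called, and said to rise or fall, at a Benjamini-Hochberg adjusted p under 0.05 in limma's moderated test over all 17440 features. Kdr, the gene of Flk1, checked the sort: it lay between 0.04 and 1.98 on the 12 Flk1+ arrays and between -1.30 and -0.28 on the 12 Flk1- arrays. At 84 h 3 arrays stood apart from the rest, arrays 2 and 4 of Flk1+ and, less far, array 4 of Flk1-; array 2 of Flk1+ correlated with its group at 0.59 at the lowest and had the lowest Kdr of the Flk1+ arrays. Counts of carriers and of related genes at 84 h are given with and without these arrays. In sorted bulk samples, fewer cells of a type and less RNA per cell cannot be told apart.

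Over the 6 group means, 29 of the 144 genes (20.1%) spanned more than 1 log2 unit, against 15.9% of all features, and the median span was 0.54 in both. Replicate arrays of a group differed with a median SD of 0.21 for the solute carriers and 0.23 for all features. In the comparisons of 1 pair of groups, 7 in all, 80 genes (55.6%, against 46.3% of all features) were called at least once and 64 never. The widest span belonged to Slc45a3 (2.33), followed by Slc38a4 (2.32), Slc8a1 (2.06), Slc41a3 (2.04) and Slc7a7 (1.95).

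The upstream sequences of 4 genes with large changes between 95 h and 8 d in both sorts are shown: Slc41a3, Slc12a4 and Slc22a17 rose and Slc25a5 fell. Each is the 250 bases before the RefSeq gene start in GRCm38.p6, written 5′ to 3′ on the gene's strand, at chr6:90618996-90619245 (+) for Slc41a3, chr8:105966116-105966365 (-) for Slc12a4, chr14:54913133-54913382 (-) for Slc22a17 and chrX:36795347-36795596 (+) for Slc25a5. Capitals mark matches, on either strand, to ACGTG (the core bound by hypoxia-inducible factors), to TGCACNC or TGCGCNC (the core bound by the metal-responsive factor) and to AGATAA (bound by GATA factors).
Slc41a3: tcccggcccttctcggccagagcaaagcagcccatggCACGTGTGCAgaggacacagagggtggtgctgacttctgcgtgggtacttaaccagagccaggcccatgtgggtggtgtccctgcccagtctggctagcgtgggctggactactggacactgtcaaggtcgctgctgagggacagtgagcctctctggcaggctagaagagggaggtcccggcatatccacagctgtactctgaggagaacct
Slc12a4: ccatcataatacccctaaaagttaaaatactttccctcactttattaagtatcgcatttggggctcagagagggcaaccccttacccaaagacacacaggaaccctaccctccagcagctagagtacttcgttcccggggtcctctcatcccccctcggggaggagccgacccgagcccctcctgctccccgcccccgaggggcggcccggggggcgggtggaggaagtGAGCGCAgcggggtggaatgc
Slc22a17: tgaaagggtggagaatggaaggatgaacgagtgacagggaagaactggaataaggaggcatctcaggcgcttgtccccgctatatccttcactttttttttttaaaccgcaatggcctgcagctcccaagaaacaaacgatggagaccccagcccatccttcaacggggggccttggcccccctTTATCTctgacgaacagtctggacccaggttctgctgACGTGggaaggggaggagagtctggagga
Slc25a5: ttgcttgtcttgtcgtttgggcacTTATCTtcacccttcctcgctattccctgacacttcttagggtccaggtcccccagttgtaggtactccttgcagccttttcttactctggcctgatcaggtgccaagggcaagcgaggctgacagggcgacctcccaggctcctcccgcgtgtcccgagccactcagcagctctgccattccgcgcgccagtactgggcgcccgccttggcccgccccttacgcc
In Slc41a3 the matches to ACGTG lay on both strands and overlapped the match to the metal core. Among all 32851 starts listed by RefSeq, 16.6% held ACGTG, 21.4% the metal core and 9.99% AGATAA. Over the 150 starts of the solute carriers these shares were 25.3%, 23.3% and 6.67%. For the genes that rose in both sorts, 16 of 22 of which had an entry with 20 starts, these shares were 20%, 40% and 10%. For the genes that fell in both sorts, 8 of 10 of which had an entry with 14 starts, each of the 3 shares was 21.4%. A match describes letters in this window and is not evidence of binding.

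More solute carriers were called from 95 h to 8 d than in any other of the 7 comparisons. In Flk1+ cells 45 of 144 genes were called (31.2%, against 22.1% of all features), 27 higher (12.8% of all features were higher) and 18 lower (9.31%). In Flk1- cells 47 were called (32.6%, against 17.7% of all features), 30 higher (9.88%) and 17 lower (7.78%). Without the 3 arrays, which belong to neither group but enter the shared estimate of spread, 59 and 63 were called, against 33.6% and 29.2% of all features. The median difference of the 144 genes was 0.02 in Flk1+ and 0.01 in Flk1- cells, beside -0.01 and -0.03 over all features. The sorts share no array in this comparison: 22 genes rose in both (7.47% of all features did) and 10 fell in both (4.05%). Deviations of same-numbered arrays of the sorts correlated at both times (0.11 to 0.44), so the sorts are not independent of each other. The 22 are 81.5% of the risers in Flk1+ and 73.3% of those in Flk1- cells, where the same shares over all features were 58.2% and 75.6%. The 10 are 55.6% and 58.8% of the respective fallers, against 43.5% and 52% over all features. No gene was called in opposite directions, and 118 of 144 (81.9%) had the same sign in both sorts, against 76.6% of all features. The arrays of 95 h and 8 d did not overlap for 57 genes in Flk1+ cells (39.6%, against 34.6% of all features). In Flk1- cells this held for 56 genes (38.9%, against 27.8%). Under quantile normalization the split in Flk1+ was 21 higher and 26 lower, and for the values as deposited 24 and 22.

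**Figure D1:**
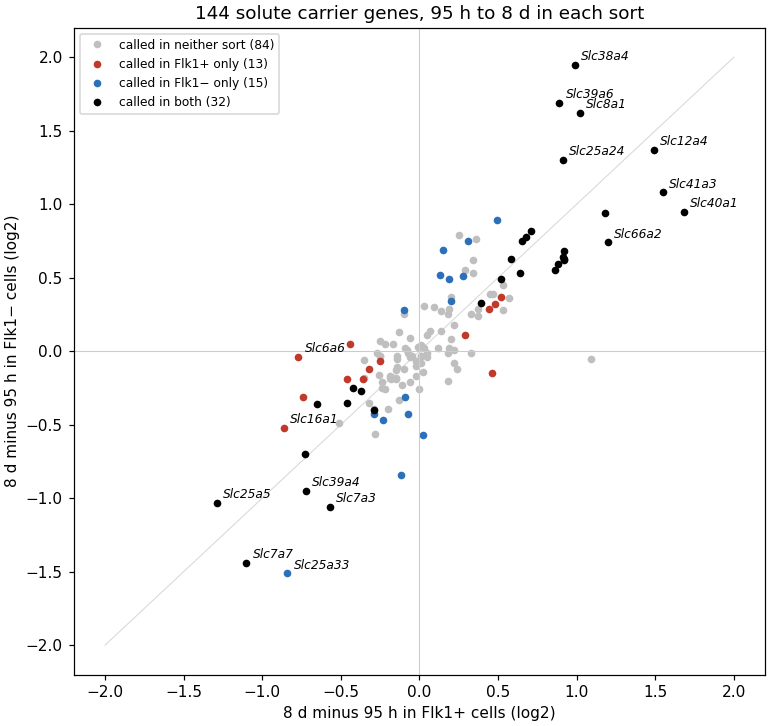
Each point is 1 of the 144 solute carrier genes; the horizontal axis is the log2 difference 8 d minus 95 h in Flk1+ cells and the vertical axis the same in Flk1- cells, with the line of equal change. Of the genes, 32 were called in both sorts (black), 13 in Flk1+ alone (red), 15 in Flk1- alone (blue) and 84 in neither (grey); all 32 lie in the upper right or lower left.

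**Figure D2:**
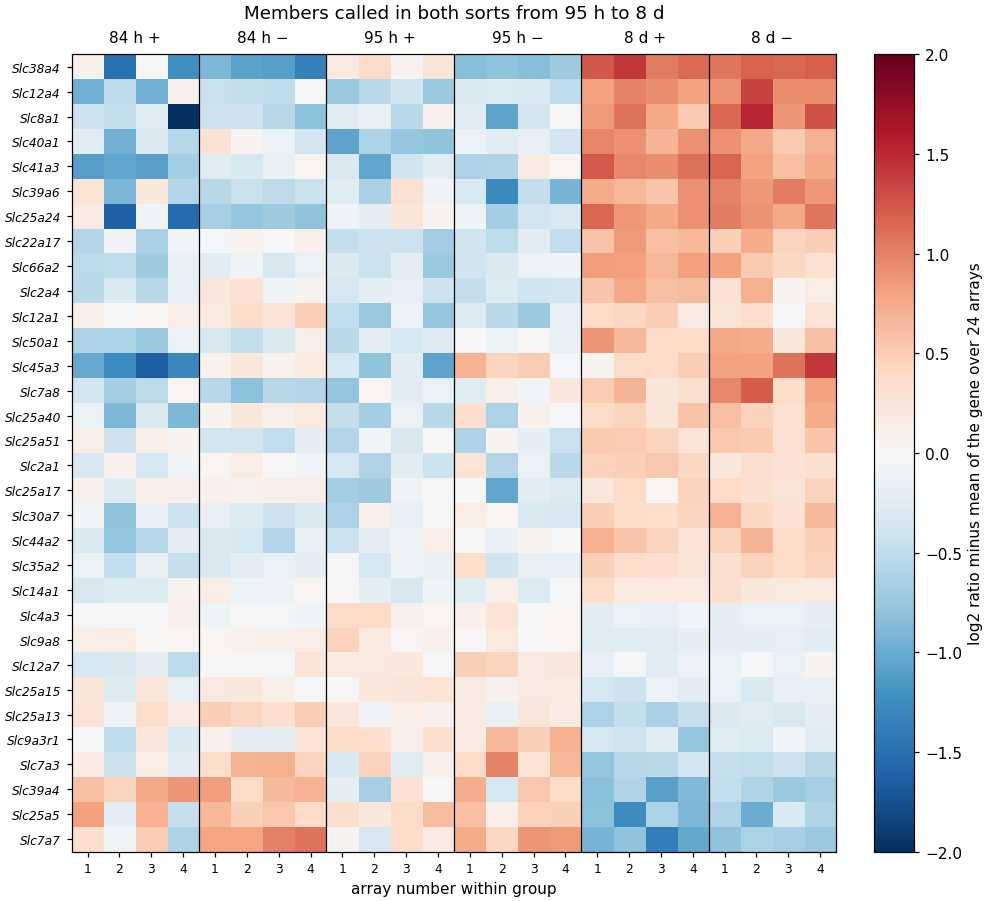
Rows are the 32 genes called in both sorts from 95 h to 8 d, ordered by their mean change; columns are the 24 arrays in their 6 groups, numbered within group, and colour is the log2 ratio minus the gene's mean over the 24 arrays. In most rows the 8 arrays of 8 d differ in colour from those of 95 h. There is overlap within a sort in rows such as Slc2a1 (array 1 of Flk1- at 95 h) and Slc39a4 (Flk1+). Across the sorts there is overlap in rows such as Slc45a3 (Flk1+ at 8 d with Flk1- at 95 h). Arrays 2 and 4 of Flk1+ at 84 h differ from arrays 1 and 3 in several rows, such as Slc38a4 and Slc25a24.

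Among the metal carriers, 15 genes, 5 rose and 1 fell from 95 h to 8 d in Flk1+ and 6 rose and 3 fell in Flk1- cells. Slc40a1 encodes ferroportin, the iron exporter of the cell surface. It read -2.43, -2.02, -2.15 and -2.18 on the Flk1+ arrays of 95 h and -0.40, -0.47, -0.71 and -0.47 on those of 8 d. In Flk1- cells it read -1.52, -1.61, -1.55 and -1.75 at 95 h and -0.47, -0.63, -0.86 and -0.67 at 8 d. All 8 arrays of 8 d lay above all 8 of 95 h, a rise of 1.68 (SE 0.15, 3.21-fold, adjusted p = 3.72e-08) in Flk1+ and of 0.95 (SE 0.15, 1.93-fold, adjusted p = 9.45e-05) in Flk1- cells. The rise of Slc40a1 did not pass the test of a difference between the sorts (0.73, SE 0.21, adjusted p = 0.189), though it did without the 3 arrays (adjusted p = 0.0183).

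Slc41a3, a magnesium carrier whose upstream sequence is printed above, read -1.47, -2.21, -1.56 and -1.39 in Flk1+ cells at 95 h and 0.06, -0.20, -0.23 and -0.07 at 8 d. In Flk1- cells it read -1.78, -1.77, -1.0 and -1.12 at 95 h and -0.01, -0.36, -0.57 and -0.41 at 8 d. The times did not overlap in either sort, and Slc41a3 rose by 1.55 (SE 0.19, adjusted p = 2.67e-06) and 1.08 (SE 0.19, adjusted p = 0.00025). Slc39a6, a zinc importer, lay between -1.12 and -0.16 in Flk1+ and between -1.74 and -0.77 in Flk1- cells at 95 h, and between 0.08 and 0.56 on all 8 arrays of 8 d. Its rise was 0.89 (SE 0.23, adjusted p = 0.00873) in Flk1+ and 1.69 (SE 0.23, 3.22-fold, adjusted p = 1.89e-05) in Flk1- cells. Slc30a7, which loads zinc into the Golgi, rose by 0.58 and 0.63. Slc39a4, another zinc importer, moved the other way. Its mean on the Flk1+ arrays was -0.16 ± 0.40 (SD, n = 4) at 95 h and -0.88 ± 0.19 at 8 d, and on the Flk1- arrays 0.30 ± 0.48 and -0.65 ± 0.10, falls of 0.72 and 0.95 (limma adjusted p = 0.0118 and 0.00164); the times overlapped in Flk1+ cells. The zinc carriers of the Slc30 and Slc39 families thus did not move in one direction: Slc30a4 (0.51) and Slc39a14 (0.34) rose and Slc30a2 (-0.43) and Slc30a3 (-0.43) fell in Flk1- cells, and Slc39a11 (0.48) rose in Flk1+ cells.

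The iron carrier can be set beside 11 measured genes of iron storage, uptake and sensing. In Flk1+ cells 2 of them rose from 95 h to 8 d, Ftl1 (ferritin light chain, 0.56) and Heph (the ferroxidase hephaestin, 0.85), and Ireb2 and Cp fell. In Flk1- cells none rose and 1 fell, Hmox1 (heme oxygenase, -0.41). Ftl1 was also lower in Flk1+ cells at 84 h (-0.49) and 95 h (-0.40), as Slc40a1 was in the main fit. The call of Slc40a1 was lost under 10 of 16 alternatives at 84 h and under 8 of 16 at 95 h.

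Of 21 carriers of inorganic ions and protons, 3 rose and 4 fell in Flk1+ and 4 rose and 4 fell in Flk1- cells from 95 h to 8 d. Slc12a4, the potassium-chloride cotransporter KCC1, read -0.96, -0.76, -0.62 and -0.95 in Flk1+ cells at 95 h and 0.59, 0.77, 0.72 and 0.59 at 8 d. In Flk1- cells the readings were -0.52, -0.49, -0.52 and -0.72 at 95 h and 0.68, 1.13, 0.72 and 0.71 at 8 d. Every array lay below 0 at 95 h and above 0 at 8 d, with rises of 1.49 (SE 0.18, 2.81-fold, adjusted p = 1.82e-06) and 1.37 (SE 0.18, 2.59-fold, adjusted p = 6.76e-06). Its relative Slc12a7 (KCC4) fell by 0.29 in Flk1+ and by 0.40 in Flk1- cells over the same interval, though neither of its 2 probes passed alone.

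Slc8a1, the sodium/calcium exchanger best known from heart muscle, read -1.66, -1.60, -1.99 and -1.37 in Flk1+ cells at 95 h and -0.60, -0.36, -0.68 and -0.92 at 8 d. The Flk1- arrays read -1.69, -2.51, -1.81 and -1.43 at 95 h and -0.30, 0.07, -0.56 and -0.17 at 8 d. The times did not overlap, with rises of 1.02 (SE 0.31, adjusted p = 0.0216) and 1.62 (SE 0.31, 3.07-fold, adjusted p = 0.000735). In Flk1+ cells the call was lost under quantile normalization (0.65, adjusted p = 0.118). Slc12a1, the sodium-potassium-chloride cotransporter known from the kidney, fell from 84 h to 95 h in both sorts (-0.59 in Flk1+, -0.75 in Flk1-) and rose again by 8 d (0.91 and 0.64). Those lower in both sorts at 8 d were, beside Slc12a7, the anion exchanger gene Slc4a3, the sodium/proton exchanger gene Slc9a8 and the scaffold gene Slc9a3r1 (-0.73 and -0.70).

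Carrier genes of ions work beside ATP-driven pumps, of which 17 were measured. From 95 h to 8 d 6 pump genes rose and 3 fell in Flk1+ cells, and 4 rose and none fell in Flk1- cells. Atp1b1, a subunit of the sodium pump, rose by 0.59 and 0.69, and Atp2b1, the calcium pump of the cell surface, by 0.72 and 0.70. Of 17 ABC transporters 4 rose and 4 fell in Flk1+ and 3 rose and 3 fell in Flk1- cells; Abca1, the cholesterol exporter, rose by 1.28 and 1.18.

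**Figure D3:**
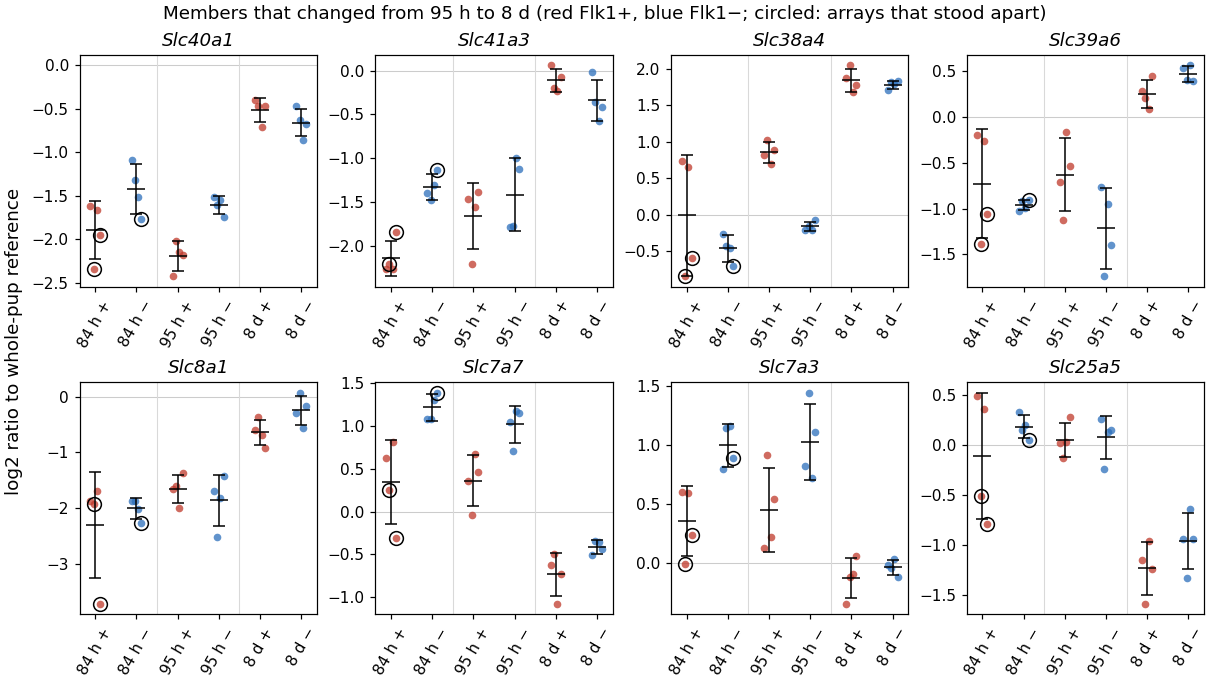
Points are single arrays of 8 genes called in both sorts from 95 h to 8 d, with the log2 ratio to the whole-pup reference on the vertical axis, red for Flk1+ and blue for Flk1-; long bars are the mean of 4 arrays, whiskers 1 SD, and circles mark the 3 arrays that stood apart. Slc40a1, Slc41a3, Slc38a4, Slc39a6 and Slc8a1 are higher at 8 d and Slc7a7, Slc7a3 and Slc25a5 lower, and circled arrays widen the 84 h Flk1+ group for Slc38a4, Slc39a6 and Slc25a5.

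Amino acid and peptide carriers split. Of 29 genes, 4 rose and 4 fell in Flk1+ and 3 rose and 2 fell in Flk1- cells from 95 h to 8 d. Slc38a4, a sodium-coupled transporter of small neutral amino acids, read 0.82, 1.03, 0.69 and 0.89 in Flk1+ cells at 95 h and 1.88, 2.05, 1.68 and 1.78 at 8 d. In Flk1- cells it started lower, at -0.21, -0.16, -0.21 and -0.07, and reached 1.71, 1.82, 1.79 and 1.83. All arrays of 8 d lay above those of 95 h, with rises of 0.99 (SE 0.24, adjusted p = 0.00451) in Flk1+ and 1.95 (SE 0.24, 3.86-fold, adjusted p = 3.98e-06) in Flk1- cells. Both of its probes were higher at 8 d in both sorts, the second with an adjusted p of 0.294 in Flk1+ cells. The test of whether the rise differed between sorts did not pass (-0.96, SE 0.34, adjusted p = 0.369); without the 3 arrays it did (adjusted p = 0.000267).

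Slc7a7 and Slc7a3 carry cationic amino acids such as arginine and lysine, and both fell. Slc7a7 read 0.36, -0.04, 0.67 and 0.46 in Flk1+ cells at 95 h and -0.63, -0.50, -1.08 and -0.73 at 8 d. In Flk1- cells it read 1.05, 0.71, 1.18 and 1.15, then -0.51, -0.34, -0.36 and -0.44. The times did not overlap, and Slc7a7 fell by 1.10 (SE 0.19, adjusted p = 0.000224) and by 1.44 (SE 0.19, adjusted p = 1.07e-05). Slc7a3 fell by 0.57 (adjusted p = 0.0211) and by 1.06 (adjusted p = 0.000135). Slc1a5, the glutamine carrier, fell by 0.46 in Flk1+ cells. Slc7a8, an exchanger of large neutral amino acids, rose by 0.71 and 0.82, and Slc6a8, the creatine transporter, rose by 0.75 in Flk1- cells. Slc3a2, the heavy chain that pairs with several Slc7 proteins, and Slc7a1, another arginine transporter, were not called in any comparison. The largest difference of Slc3a2 was 0.25 and that of Slc7a1 0.34, from 84 h to 95 h in Flk1+ and in Flk1- cells respectively. The 0.25 of Slc3a2 averaged probes that differed, at 0.83 (limma adjusted p = 0.00889) and -0.33 (adjusted p = 0.0569).

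Cells switch on the genes of the amino acid response when amino acids or their synthesis run short. From 95 h to 8 d 8 of 17 such genes fell, 8 were not called and Ddit4 rose in Flk1+ cells (9.31% of all features fell). In Flk1- cells 1 fell and none rose (7.78% of all features fell). The fit without the 3 arrays of 84 h called 13 lower in Flk1+ and 4 in Flk1- cells, against 15.9% and 14.6% of all features. Psat1 and Phgdh, enzymes of serine synthesis, fell by 1.60 and 0.99 and the asparagine synthetase gene Asns by 1.01 in Flk1+ cells. Slc38a2, a carrier known to follow this response, changed by -0.35 (adjusted p = 0.0599) in Flk1+ and by -0.06 in Flk1- cells, and its 2 probes differed, at -0.66 and -0.03 in Flk1+ cells.

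Slc6a6, the taurine transporter, was called over this interval in Flk1+ cells alone. It read 1.30, 1.05, 0.89 and 1.04 at 95 h and 0.16, 0.58, 0.50 and -0.04 at 8 d, a fall of 0.77 (SE 0.13, adjusted p = 0.000138). In Flk1- cells its mean was 0.31 ± 0.23 (SD, n = 4) at 95 h and 0.27 ± 0.06 at 8 d. All 4 of its probes fell in Flk1+ cells, by 0.61, 0.77, 0.90 and 0.80. The difference between the sorts in this change was -0.73 (SE 0.18, adjusted p = 0.0824; 0.0486 without the 3 arrays).

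The mitochondrial carriers, 24 genes, had 5 higher and 5 lower in each sort. Slc25a5 encodes an ADP/ATP translocase, which exports the ATP made in mitochondria. It read 0.02, -0.13, 0.03 and 0.28 in Flk1+ cells at 95 h and -1.15, -1.59, -0.96 and -1.24 at 8 d. The Flk1- arrays read 0.26, -0.24, 0.13 and 0.15, then -0.94, -1.33, -0.64 and -0.94. No array of 8 d reached those of 95 h, and the falls were 1.29 (SE 0.22, adjusted p = 0.000186) and 1.03 (SE 0.22, adjusted p = 0.0019). Slc25a13, the aspartate/glutamate carrier of the malate-aspartate shuttle, fell by 0.65 and 0.36, on average over 2 probes that differed: in Flk1+ cells 1 fell by 1.17 and the other changed by -0.14 (adjusted p = 0.407). Slc25a15, the ornithine carrier of the urea cycle, fell by 0.46 and 0.35, again the average of a probe that fell (-0.95 and -0.71) and one that gave 0.03 and 0.01.

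In the other direction Slc25a24, which exchanges ATP-magnesium for phosphate, rose by 0.91 (SE 0.28, adjusted p = 0.0205) in Flk1+ and 1.30 (SE 0.28, adjusted p = 0.0019) in Flk1- cells. It read between -0.95 and -0.03 on the 95 h arrays and between 0.49 and 0.87 on those of 8 d. Slc25a51, a carrier of NAD, rose by 0.68 and 0.78, Slc25a40 by 0.88 and 0.59, and Slc25a17, a member found in peroxisomes, by 0.65 and 0.75. Slc25a33, a pyrimidine nucleotide carrier, was lower at 8 d in Flk1- cells (-1.51, SE 0.32, adjusted p = 0.00184). Of its 4 Flk1- arrays at 95 h, array 2 read 2.41 and the others 0.27, 0.26 and 0.01, and without array 2 the difference was -0.96.

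Sugar carriers and their relatives, 12 genes, had 4 higher and 1 lower in Flk1+ and 5 higher and none lower in Flk1- cells. Slc2a1, the GLUT1 glucose transporter, read 0.88, 0.61, 1.01 and 0.81 in Flk1+ cells at 95 h and 1.68, 1.69, 1.76 and 1.63 at 8 d. The Flk1- arrays read 1.49, 0.63, 1.08 and 0.68 at 95 h and 1.45, 1.56, 1.51 and 1.54 at 8 d. Its rise was 0.86 (SE 0.14, adjusted p = 0.000138) in Flk1+ cells, where the times did not overlap, and 0.55 (SE 0.14, adjusted p = 0.00947) in Flk1- cells, where array 1 of 95 h lay within the range of 8 d. The 2 probes of Slc2a1 disagreed: in Flk1+ cells 1 rose by 1.78 (adjusted p = 3.23e-07) and the other changed by -0.05 (adjusted p = 0.841), and in Flk1- cells the values were 1.25 and -0.15.

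Slc2a4, the insulin-responsive GLUT4, stayed below the reference on every array but rose by 0.92 (SE 0.13, adjusted p = 1.38e-05) in Flk1+ and 0.68 (SE 0.13, adjusted p = 0.000546) in Flk1- cells. Slc50a1, a sugar efflux carrier, rose by 0.92 and 0.63, and Slc45a3, a protein of the sucrose carrier type, by 0.92 and 0.62. Slc5a6, a vitamin carrier placed here by its family, rose by 0.49 in Flk1- cells, and Slc5a3, the myo-inositol transporter, fell by 0.25 in Flk1+ cells. Of 14 glycolysis genes 4 rose (Hk1, Pfkm, Tpi1 and Pdk1) and 1, Ldha, fell in Flk1+ cells; in Flk1- cells Pfkm rose and Ldha fell. The lactate carrier gene Slc16a1 (MCT1) fell by 0.86 (SE 0.26, adjusted p = 0.0196) in Flk1+ cells; 1 of its probes fell by 0.40 and the other changed by -1.32 (adjusted p = 0.0503). Slc16a3 (MCT4), the other lactate carrier measured, changed by 0.53 (adjusted p = 0.102) in Flk1+ and 0.28 (adjusted p = 0.453) in Flk1- cells.

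Among the organic ion carriers, 14 genes, 2 rose in Flk1+ and 3 in Flk1- cells and none fell. Slc22a17, the receptor for the iron-binding protein lipocalin 2, rose by 1.18 (SE 0.12, 2.26-fold, adjusted p = 4.11e-07) and 0.94 (SE 0.12, 1.92-fold, adjusted p = 1.07e-05). It read between -2.18 and -1.69 on the 95 h arrays and between -1.04 and -0.63 on those of 8 d. Slc66a2, a PQ-loop protein, rose by 1.20 (adjusted p = 6.62e-07) and 0.74 (adjusted p = 0.000339). The choline transporter-like gene Slc44a2 rose by 0.64 and 0.53, the UDP-galactose carrier gene Slc35a2 by 0.52 and 0.49, and the urea transporter gene Slc14a1 by 0.39 and 0.33. Of the 2 probes of Slc35a2, 1 rose by 0.98 and 0.89 and the other gave 0.06 and 0.10 (adjusted p = 0.789 and 0.612), and those of Slc14a1 gave 0.64 and 0.14 in Flk1+ cells. Of 4 nucleoside transporters Slc29a2 (ENT2) fell by 0.74 in Flk1+ cells and Slc29a1 (ENT1) by 0.57 in Flk1- cells. Slc27a2, an enzyme and carrier of very long chain fatty acids, fell by 0.84 (adjusted p = 0.0461) in Flk1- cells.

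Single genes were followed with 1 array left out for only part of the genes above. Not followed were Slc4a3, Slc5a6, Slc9a3r1, Slc9a8, Slc12a7, Slc14a1, Slc25a15, Slc25a17, Slc25a51, Slc30a2, Slc30a3, Slc30a4, Slc35a2, Slc39a11 and Slc39a14. Some of the calls followed were lost when a single array was left out. In Flk1+ cells these were Slc1a5, Slc5a3, Slc7a3, Slc8a1, Slc25a24, Slc30a7, Slc35a4 and Slc39a4, each lost without at least 1 of arrays 1, 2 and 4 of 8 d or of the 4 arrays of 95 h, with adjusted p-values over their alternatives up to 0.118. In Flk1- cells they were Slc25a13, Slc25a40, Slc27a2, Slc29a1 and Slc45a3, each lost without at least 1 array of 8 d or 95 h, with adjusted p-values up to 0.122. The calls of Slc25a40 and Slc27a2 in Flk1- cells were lost under 7 of 16 alternatives each. The call of Slc2a1 in Flk1- cells was lost with only the arrays compared, with and without a block (adjusted p up to 0.0938). Under quantile normalization Slc7a8 (limma adjusted p = 0.281), Slc8a1 and Slc45a3 lost their calls in Flk1+ cells. Slc12a1, Slc45a3 and Slc50a1 lost theirs in Flk1- cells.

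Markers of other cells moved over the same interval. Of 6 measured mural and fibroblast markers 5 rose in Flk1+ and 4 in Flk1- cells; their mean log2 ratio per array lay between -2.02 and -1.78 at 95 h and between -0.28 and 0.07 at 8 d. Of 5 erythroid markers 3 rose in each sort, of 8 pluripotency markers 3 fell in Flk1+ (Klf2 rose) and 5 in Flk1- cells, and of 5 nascent mesoderm markers 4 fell in Flk1+ and 3 in Flk1- cells (Hand1 rose). Of 6 endothelial markers Cdh5 (2.92) and Emcn rose in Flk1+ cells, and Cdh5 (0.95) and Kdr rose and Flt1 fell in Flk1- cells. Of 6 cardiac markers Tnnt2 rose in both sorts (0.52 and 1.11), and in Flk1- cells Myl7 rose (1.51) and Tnni3 fell (-0.76); Slc8a1 rose in both. Of 6 endoderm markers Sox17 rose and Apoa1 fell in Flk1+ cells, and Ttr rose (1.87) and Sox17 fell in Flk1- cells. Of 5 neural markers Map2 rose and Stmn2 fell in both sorts and Nefl fell in Flk1- cells, and of 4 leukocyte markers Cd53 rose and Laptm5 fell in both and Ptprc rose in Flk1+ cells. Slc4a1, the anion exchanger of red cells, averaged -0.56 ± 0.28 (SD, n = 4) at 95 h and -0.19 ± 0.08 at 8 d on the Flk1+ arrays, -0.48 ± 0.23 and -0.25 ± 0.08 on the Flk1- arrays, and was not called. The part of these cell types in the changes of the carriers was not tested.

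Between the sorts at 84 h 18 carriers were called (12.5%, against 13.5% of all features), 5 higher in Flk1+ cells (5.3% of all features were higher) and 13 lower (8.18%). The fit without the 3 arrays called 15, 6 higher and 9 lower, against 6.74% of all features. The sets differed: 25 genes were called in at least 1 of the fits and 8 in both, and 1 of the 25, Slc25a24, had opposite signs (-0.04 with all arrays, 0.76 without the 3). The split also moved with the scaling, to 9 higher and 10 lower for the values as deposited and to 8 and 6 under quantile normalization. Leaving out single arrays changed the count from 18 to 9 without array 4 of Flk1+, and to 10, 8 and 8 without arrays 1, 2 and 3 of Flk1-. The median of the 144 genes was -0.04, beside 0.00 over all features.

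**Figure D4:**
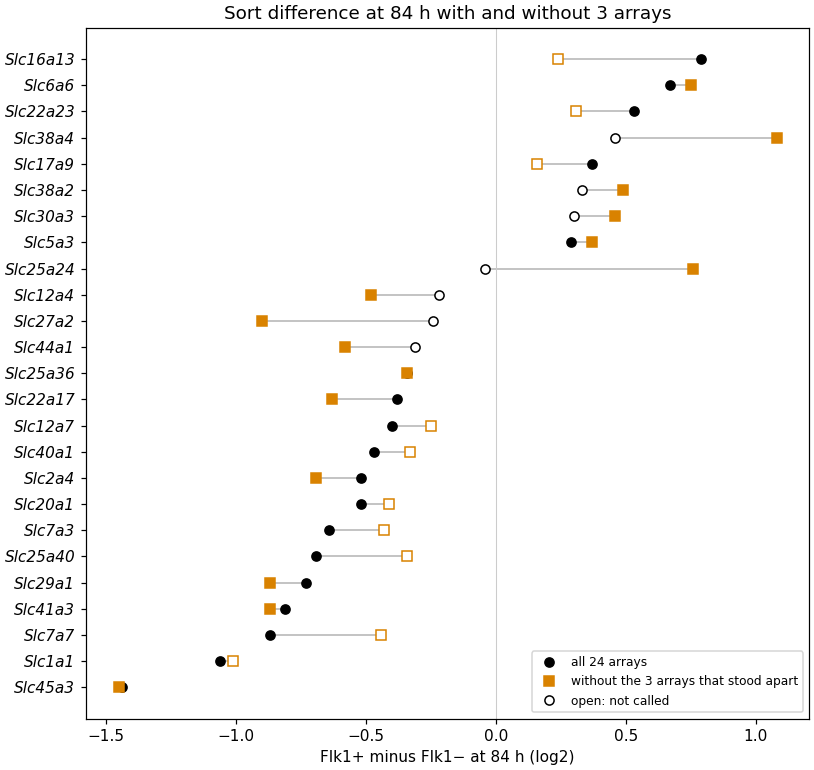
For the 25 genes called in at least 1 of the fits at 84 h, the horizontal axis gives the log2 difference Flk1+ minus Flk1-, with all 24 arrays (black circles) and without the 3 arrays that stood apart (orange squares); open marks are not called. Slc45a3, Slc41a3, Slc6a6, Slc5a3 and Slc25a36 lie close together in both fits, whereas Slc38a4, Slc27a2 and Slc25a24 move by more than 0.6.

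Slc45a3 differed most. It read -2.48, -2.71, -3.12 and -2.76 on the Flk1+ arrays of 84 h and -1.40, -1.26, -1.40 and -1.27 on the Flk1- arrays. At 95 h it read -1.82, -2.28, -1.68 and -2.52 in Flk1+ and -0.77, -1.02, -0.96 and -1.49 in Flk1- cells. The sorts did not overlap at either time, and Flk1+ cells were lower by 1.44 (SE 0.19, adjusted p = 2.52e-05) at 84 h and by 1.01 (SE 0.19, adjusted p = 0.00272) at 95 h. At 8 d the groups again did not overlap, at -1.42, -1.10, -1.09 and -0.98 against -0.67, -0.66, -0.38 and -0.06. The difference of -0.71 (SE 0.19, limma adjusted p = 0.129) was not called. With the array number as a block, which the numbers of 95 h and 8 d allow, the difference was called (adjusted p = 0.0152). Over all features, the sorts did not overlap for 17.4% at 84 h, 4.81% at 95 h and 15.9% at 8 d. For the carriers these shares were 12.5%, 7.64% and 13.9%.

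Slc6a6 was the opposite case. It read 0.91, 0.83, 0.82 and 0.76 in Flk1+ and 0.02, 0.16, 0.17 and 0.28 in Flk1- cells at 84 h, and 1.30, 1.05, 0.89 and 1.04 against 0.65, 0.16, 0.17 and 0.25 at 95 h. Flk1+ cells were higher by 0.67 (SE 0.13, adjusted p = 0.00181) and 0.76 (SE 0.13, adjusted p = 0.00112), with no overlap. At 8 d the difference was 0.03 (SE 0.13). Of its 4 probes 3 were called at 84 h (0.83, 0.68 and 1.12) and the fourth gave 0.07; at 95 h 2 were called (0.94 and 0.86).

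**Figure D5:**
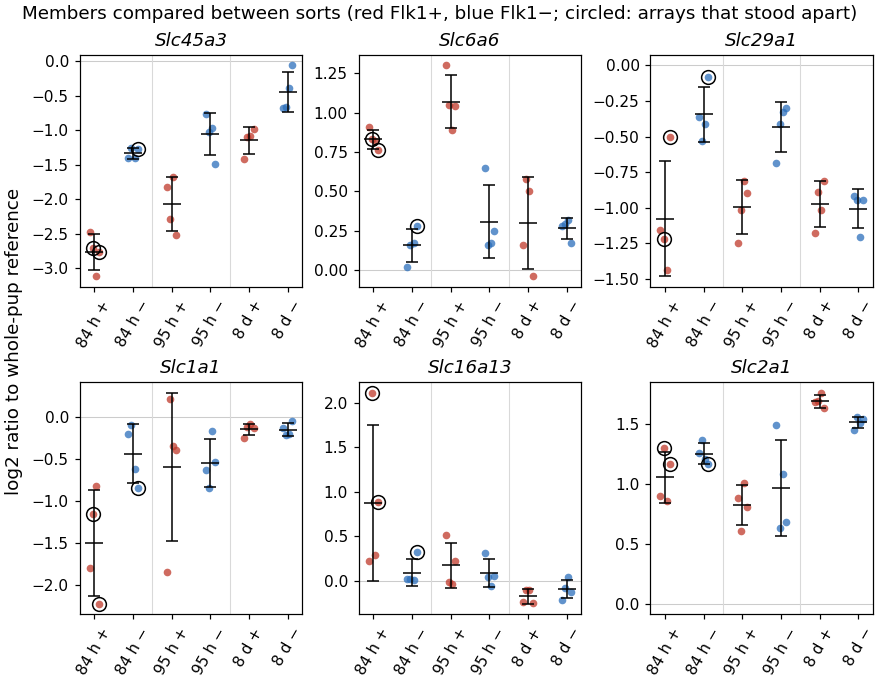
Points are single arrays of 6 genes in the 6 groups, with the log2 ratio to the whole-pup reference on the vertical axis, red for Flk1+ and blue for Flk1-; long bars are means of 4 arrays, whiskers 1 SD, and circles mark the 3 arrays that stood apart. Slc45a3 is lower and Slc6a6 higher in Flk1+ at 84 h and 95 h, the means of Slc29a1 are lower in Flk1+ at 84 h and 95 h and differ by 0.03 at 8 d, and the 84 h value of Slc16a13 in Flk1+ is carried by array 2 at 2.11.

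Among the other genes lower in Flk1+ cells at 84 h were the magnesium carrier gene Slc41a3 (-0.81, adjusted p = 0.00817), the nucleoside transporter gene Slc29a1 (-0.73, adjusted p = 0.00538) and Slc2a4 (-0.52, adjusted p = 0.0126). These kept their calls without the 3 arrays, at -0.87, -0.87 and -0.69, but not under quantile normalization, where they were -0.36, -0.42 and -0.08 (adjusted p = 0.315, 0.102 and 0.77). Slc1a1, a glutamate transporter, was lower by 1.06 (adjusted p = 0.0334); its Flk1+ arrays ran from -2.22 to -0.82 and overlapped the Flk1- arrays, at -0.84 to -0.09. It was not called without the 3 arrays (-1.01, adjusted p = 0.139). Slc7a7 (-0.87), Slc7a3 (-0.64), Slc25a40 (-0.69), Slc20a1 (-0.52), Slc40a1 (-0.47) and Slc12a7 (-0.40) also lost their calls without them, at -0.44, -0.43, -0.34, -0.41, -0.33 and -0.25. Slc22a17 (-0.38, limma adjusted p = 0.0491) had a difference of 0.04 under quantile normalization. The difference of Slc40a1 ran from -0.58 to -0.03 over 16 alternatives, of which 10 lost the call.

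Of the genes higher in Flk1+ cells at 84 h beside Slc6a6, Slc16a13, a monocarboxylate transporter, read 0.22, 2.11, 0.29 and 0.89 in Flk1+ and 0.02, 0.02, 0.01 and 0.32 in Flk1- cells. Its difference of 0.79 (adjusted p = 0.047) was 0.24 (adjusted p = 0.364) without the 3 arrays. Slc22a23 (0.53) and Slc17a9 (0.37), the vesicular nucleotide transporter, were likewise not called without them, and Slc5a3 (0.29) was. Slc38a4 read 0.74, -0.85, 0.66 and -0.59 in Flk1+ cells, with arrays 2 and 4 apart from 1 and 3, and -0.26, -0.43, -0.46 and -0.71 in Flk1- cells. The difference was 0.46 (adjusted p = 0.19) with all arrays and 1.08 (adjusted p = 7.34e-06) without the 3.

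Of related genes at 84 h, 6 of 14 glycolysis genes were lower in Flk1+ cells and none higher (8.18% of all features were lower). Without the 3 arrays 5 were lower (4.84% of all features were). Pdk1 was lower by 1.54 and without them by 1.51. Of 17 ion pump genes 7 were lower, 5 of them V-type proton pump subunits, and 1 higher, but without the 3 arrays 3 were lower and none higher. Of 17 ABC transporters 2 were lower and 1 higher, and without the 3 arrays 2 and none; Abcc4 was lower by 1.30 and 1.31. Of 17 amino acid response genes 1 was higher and 1 lower (none and 1 without the 3), and of 11 iron genes 2 were lower (1 without the 3). Of 8 pluripotency markers 5 were lower in Flk1+ cells, or 3 without the 3 arrays, with a mean per array between 0.51 and 0.87 against 1.64 and 1.81. Of 5 nascent mesoderm markers 3 were higher in both fits. Of 6 endoderm markers Foxa2 (-1.95) and Sox17 were lower and Apoa1 higher (1 lower and none higher without the 3 arrays). Of 5 neural markers Nefl and Stmn2 were lower (3 without the 3), and of 4 leukocyte markers Cd53 and Lyz2 (3 without the 3). Of 6 cardiac markers Tnni3 was lower (1 lower and 1 higher without the 3). Kdr, of 6 endothelial markers, and Pdgfrb, of 6 mural and fibroblast markers, were higher. The part of these differences in the carriers was not tested.

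At 95 h 4 carriers differed between the sorts (2.78%, against 2.03% of all features), 2 higher (0.659%) and 2 lower (1.37%) in Flk1+ cells. Beside Slc45a3 and Slc6a6, these were Slc38a4, higher by 1.02 (SE 0.24, adjusted p = 0.0233), and Slc40a1, lower by 0.59 (SE 0.15, adjusted p = 0.0432), and in each the groups did not overlap. The call of Slc40a1 was lost under 8 of 16 alternatives, among them array weights (adjusted p = 0.207), only the arrays compared (0.0994) and 6 of the 8 arrays left out singly (array 1, 3 or 4 of Flk1+, array 1, 2 or 3 of Flk1-). The call of Slc38a4 was lost under 6, with the more variable of its 2 probes (0.99, adjusted p = 0.406) and without array 1, 2 or 4 of Flk1+ or array 1 or 3 of Flk1- (adjusted p up to 0.0672). The fit without the 3 arrays called 9, against 4% of all features, among them Slc7a7 (-0.66, adjusted p = 0.00986), Slc29a1 (-0.56) and Slc27a2 (-0.73). With the array number as a block 7 were called, against 3.12% of all features, which added Slc29a1, Slc7a3 (-0.58) and Slc6a20a (-1.30). Without array 4 of Flk1+ or array 3 of Flk1- the count was 2. Markers of other cells differed too: of 8 pluripotency markers Sox2 (-2.66), Utf1 and Klf2 were lower in Flk1+ cells (5 were in the fit without the 3 arrays of 84 h), of 6 endoderm markers Foxa2 (-2.39) and Sox17, and of 5 neural markers Nefl and Stmn2. Of 6 cardiac markers Myl7 was higher (1.44) and Tnni3 lower, of 5 nascent mesoderm markers Hand1 was higher (1.27), and of 6 endothelial markers Kdr was higher and Flt1 lower. Their part in the carriers' differences was not tested.

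At 8 d no carrier was called by limma between the sorts, against 0.373% of all features. An unadjusted limma p under 0.05 was found for 12 (8.33%, against 4.81% of all features). The 144 differences ran from -0.71 to 0.36. The block called 1 gene, Slc45a3, against 0.797% of all features. Other settings called more: 25 with array weights, 9 with only the arrays compared and 4 under quantile normalization. The shares of all features under these settings are not given here, so these counts cannot be read as particular to the carriers. Without the 3 arrays, against 0.986% of all features, 3 were called, all lower in Flk1+ cells: Slc16a1 (-0.62), Slc25a43 (-0.39) and Slc38a2 (-0.36). The changes of the sort difference between consecutive times gave no called carrier. Of all features, 0.00573% were called for the change from 84 h to 95 h and 0.533% for that from 95 h to 8 d. An unadjusted limma p under 0.05 was found for 11 carriers (7.64%, against 15.4% of all features) and 14 carriers (9.72%, against 7.7%) respectively. Without the 3 arrays 0 and 4 carriers were called, against 0.178% and 1.8% of all features; the 4 were Slc38a4 and Slc6a6 (-0.96 and -0.73) and Slc40a1 and Slc27a2 (0.73 and 0.72).

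From 84 h to 95 h 30 carriers were called in Flk1+ cells (20.8%, against 19.8% of all features), 15 higher (11.2%) and 15 lower (8.62%). The fit without the 3 arrays called 10, against 5.45% of all features. Single arrays moved the count too: it was 16 without array 2 or without array 4 of Flk1+ at 84 h, 17 without array 2 of 95 h, and 47 without array 1 of 84 h. It was 0 with only the arrays compared and 9 with array weights. For the values as deposited the split was 10 higher and 17 lower, and under quantile normalization 4 and 10. This comparison shares the Flk1+ arrays of 84 h with the sort comparison at 84 h.

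Several of the largest called differences shrank without the 3 arrays. Slc38a4 rose by 0.87 with all arrays, with a difference of 0.16 (adjusted p = 0.41) without the 3. Slc27a2 read -2.82, -0.75, -2.85 and -2.38 at 84 h and fell by 0.95 by 95 h; without the 3 its difference was -0.32 (adjusted p = 0.218). Slc38a5 and Slc4a1 fell by 0.87 and 0.60, against -0.39 and -0.16 without the 3 arrays, and Slc1a1 and Slc20a1 rose by 0.91 and 0.57, against 0.72 and 0.31. Slc20a2, a phosphate transporter, fell by 0.83, against -0.53. None of these was called without the 3.

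Of the 30 calls in Flk1+ cells, 6 were also made without the 3 arrays: Slc12a1, Slc12a7, Slc25a20, Slc30a3, Slc35a4 and Slc47a1. Slc12a1 read -0.88, -1.02, -0.94 and -0.85 at 84 h and -1.48, -1.72, -1.09 and -1.76 at 95 h, a fall of 0.59 (SE 0.14, adjusted p = 0.00889; -0.60 without the 3). Slc35a4 rose by 0.55 (0.51 without them), Slc12a7 by 0.50 (0.42) and Slc25a20, the carnitine/acylcarnitine carrier of fatty acid oxidation, by 0.48 (0.53). Slc39a4 fell by 0.80, and its difference without them was -0.81 (adjusted p = 0.0655). Slc25a37, mitoferrin 1, which brings iron into mitochondria, rose by 0.44 and was not called without them (0.30, adjusted p = 0.261). Of 17 amino acid response genes 4 rose (Atf4, Asns, Sars and Nupr1) and Wars fell in Flk1+ cells, and without the 3 arrays 1, Nupr1, rose and none fell; Asns gave 0.95 and -0.05.

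In Flk1- cells 3 carriers were called over this interval (2.08%, against 1.64% of all features), 1 higher (1.06%) and 2 lower (0.585%). Slc25a20 rose by 0.52 (SE 0.12, adjusted p = 0.0327), and Slc12a1 and Slc2a4 fell by 0.75 (adjusted p = 0.00883) and 0.49 (adjusted p = 0.0492). Slc25a20 and Slc12a1 were called in both sorts, which share no array here. The sorts are not independent, as deviations of same-numbered arrays correlated at 95 h (0.11 to 0.42). The fit without the 3 arrays called 8, against 3.83% of all features. The count was 8 without array 1 of 95 h and 1 without array 4 of 95 h or without array 2, 3 or 4 of 84 h.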

How the data were processed

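The authors hybridised amplified RNA of 24 sorted samples (Cy5) against a whole-pup reference (Cy3) on 2-colour Agilent arrays without a dye swap, per the labels. The deposited values, 1 column per array, were read as log2 ratios of sample over reference; log base, direction, background correction and normalization within arrays are not given in the sources used here. They held 20280 probes with no missing value; 11813 had 1 gene in the platform annotation, 559 several and 7908 none listed, and all 144 solute carrier identifiers were found in the RefSeq gene table. For the work here each array's median was set to 0, probes of a gene were averaged, and limma 3.58.1 in R 4.3.3 fitted the 6 group means over 17440 features (18 residual and 3.41 prior degrees of freedom), with Benjamini-Hochberg adjustment over all of them. The procedure was tested on simulated data with independent normal noise. These held neither arrays that stood apart nor pairing of the sorts, so the test does not bear on either. Array numbers 1 to 4 recur in every group. Within a time, the deviations of same-numbered Flk1+ and Flk1- arrays correlated at -0.13 to 0.53, over 0.1 in 11 of 12 pairs and in all pairs of 95 h and 8 d, so the numbers were taken to pair the sorts at those times. Across times no pair passed 0.1. The main fit left the pairing of the sorts out, as the labels state no design beyond sort, time and number. Only the replicate block within time used it. Sources give no depth for arrays; their number, 4 per group, limits precision. Alternatives were array scaling, array weights, probe choice, a filter on low values, fewer arrays and the replicate block. Genes named in the text were the members called with the largest changes, those of known role in each class and, chosen after their values were seen, further called members that complete a class. The members and lists were chosen with earlier results of these data known. Promoter sequences were taken from a RefSeq table on GRCm38.p6, which held 111 of the 144 genes.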

Additional observations from a re-analysis of the deposited data

Results flagged for a closer look

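For 43 named genes, each group of 4 arrays was searched for an array far from the other 3 by Dixon's 95% criterion. It marked 14 of 258 gene and group pairs, where chance alone marks about 1 in 20.

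At 84 h, Slc8a1 read -3.72 on array 4 of Flk1+ against -1.92 to -1.69 on the others, and Slc41a3 read -1.84 on the same array against -2.27 to -2.21. In Flk1- cells of 84 h, array 4 gave 0.32 for Slc16a13 (the others 0.01 to 0.02) and -0.23 for Slc12a4 (-0.73 to -0.66), and array 2 gave -1.97 for Slc7a8 (-1.73 to -1.70). Both arrays numbered 4 are among the 3 that stood apart.

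At 95 h, Slc25a33 read 2.41 on array 2 of Flk1- against 0.01 to 0.27, and Slc4a1 read -0.14 on that array against -0.61 to -0.56. Slc12a4 read -0.72 on array 4 of Flk1- against -0.52 to -0.49, and Slc35a4 read 0.63 on array 1 of Flk1+ against 0.35 to 0.38.

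At 8 d, Slc12a4 read 1.13 on array 2 of Flk1- against 0.68 to 0.72, and Slc29a1 read -1.21 on array 3 of Flk1- against -0.95 to -0.92. In Flk1+ cells Slc38a5 read -0.16 on array 2 against -0.51 to -0.46, Slc66a2 read -0.64 on array 3 against -0.47 to -0.46, and Slc25a33 read -0.98 on array 4 against -1.29 to -1.28.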

How the results depend on the processing

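Single differences were followed for the 43 genes searched above, not for every gene in the text. Of 94 named differences under 1502 alternatives, 1234 kept direction and call, 267 kept direction and lost the call, and 1 reversed: Slc22a17 between the sorts at 84 h was 0.04 under quantile normalization. The differences kept under every alternative tried numbered 38, among them Slc45a3 and Slc6a6 between the sorts at 84 h and Slc40a1, Slc41a3, Slc12a4, Slc25a5 and Slc7a7 from 95 h to 8 d in both sorts. Counts of called carriers moved more. Where no share of all features is given for a setting, its count cannot be read as particular to the carriers. Array weights gave 37 between the sorts at 84 h, 25 at 8 d, 9 and 25 from 84 h to 95 h in Flk1+ and Flk1-, 73 from 95 h to 8 d in Flk1-, and 3 for the change of the sort difference from 95 h to 8 d. Quantile normalization gave 4 between the sorts at 8 d, 14 from 84 h to 95 h in Flk1+ and 1 for that change. Without the 3 arrays that stood apart, the counts were 9 and 3 between the sorts at 95 h and 8 d, 10 and 8 from 84 h to 95 h in Flk1+ and Flk1-, and 4 for that change. A fit of only the arrays compared gave 4, 1 and 9 between the sorts at 84 h, 95 h and 8 d, 0 from 84 h to 95 h in either sort, and 2 for that change. The replicate block within time gave 28, 7 and 1 between the sorts at 84 h, 95 h and 8 d and 1 for that change. Between the sorts it called 25.1%, 3.12% and 0.797% of all features at these times. At 84 h 1 pair of numbers fell short of the pairing criterion. That block could not be fitted to comparisons between times, so a replicate block across times, chosen after seeing the data, was used there: it gave 0 from 84 h to 95 h in either sort and 31 from 95 h to 8 d in Flk1-. Leaving out 1 array at a time gave 8 to 26, 2 to 5 and 0 between the sorts at 84 h, 95 h and 8 d, 16 to 47 and 1 to 8 from 84 h to 95 h in Flk1+ and Flk1-, 36 to 40 and 36 to 43 from 95 h to 8 d, and 0 to 1 for both changes of the sort difference; the 1 came without array 1 of 95 h, of Flk1+ for both and also of Flk1- for the later change. The cause of these shifts was not tested. Ratios to a whole-pup reference limit what is seen of genes weak in both.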
